A study of Mus musculus with 12 samples.

Results

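The genes described here are 40 genes known to be imprinted in the mouse, outside the insulin-like growth factor axis of Igf2, H19, Igf2r and Grb10. They were taken by symbol from a table of 23284 gene symbols, and all 40 were found there. By textbook assignment 21 are expressed from the paternal allele and 15 from the maternal allele, and in 4 the allele depends on the transcript (Gnas, Blcap, H13 and Inpp5f). For 11 of the 40 that assignment holds only in some tissues, chiefly brain or placenta. All 11 are maternal genes: Ube3a, Ppp1r9a, Asb4, Kcnq1, Ascl2, Slc22a3, Copg2, Commd1, Zim1, Osbpl5 and Tssc4. The genes lie in 16 chromosomal clusters, of which 9 hold more than 1 of them (33 genes).

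The study measured RNA of mouse muscle progenitors that were sorted by flow cytometry as CD31- CD45- a7-Integrin+ VCAM+, a gate that keeps cells with the laminin receptor chain and the adhesion molecule of muscle progenitors and removes endothelial and blood cells. There were 4 groups of 3 libraries, all labelled with the strain 129P2/OlaHsd and described as biological replicates. The teratoma group came from tumours aged 3 weeks that grew from pluripotent stem cells. The transplant group had first been sorted from teratoma by the same gate, placed into the tibialis anterior, and recovered from that muscle 1 month later by a further sort. Whole E14.5 embryos gave the embryo group. Total hindlimbs of male mice aged 8 weeks gave the adult group. The genotype and strain of the transplanted hosts, the stem cell line and the number of animals behind each library are not stated in the labels. A marker that separates donor from host cells is not named for the transplant sort either, so a share of host progenitors in that group was not tested.

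Imprinted genes are expressed mainly from 1 parental copy, because DNA methylation laid down in the egg or the sperm marks a control region that is read in every later cell. Most lie in clusters in which paternally expressed proteins and maternally expressed genes or long noncoding RNAs share that control region. Many of the genes that promote fetal growth are paternally expressed, and their RNA is high in embryonic tissue and falls after birth. The values used here are FPKM, fragment numbers scaled to transcript length and library size, which sum both alleles. Which copy was read, and whether an imprint was kept or lost, was not measured.

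Some of these genes carry near their start the hexamer TGCCGC, which ZFP57, a zinc finger protein that keeps imprints methylated, recognises when its CpG is methylated. The 250 bases before a RefSeq start are shown for 4 genes that the results turn on: Mest and Plagl1, which were much higher in embryo than elsewhere, and Dlk1 and Meg3, the 2 ends of the contrast within 1 domain. The bases were read from RefSeq on GRCm38.p6, plus strand, 5′ to 3′, at chr6:30737800-30738049, chr10:13090582-13090831, chr12:109452573-109452822 and chr12:109540746-109540995. Capitals mark the hexamer or its reverse complement, GCGGCA.
Mest: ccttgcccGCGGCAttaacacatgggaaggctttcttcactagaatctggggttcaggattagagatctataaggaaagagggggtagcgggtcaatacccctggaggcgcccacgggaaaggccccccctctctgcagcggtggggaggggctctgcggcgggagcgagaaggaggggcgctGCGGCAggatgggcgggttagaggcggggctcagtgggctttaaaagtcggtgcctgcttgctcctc
Plagl1: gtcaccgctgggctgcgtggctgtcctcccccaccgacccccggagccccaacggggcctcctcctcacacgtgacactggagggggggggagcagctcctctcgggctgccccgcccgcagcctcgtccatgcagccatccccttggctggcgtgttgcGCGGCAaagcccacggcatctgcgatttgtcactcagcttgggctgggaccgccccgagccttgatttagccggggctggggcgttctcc
Dlk1: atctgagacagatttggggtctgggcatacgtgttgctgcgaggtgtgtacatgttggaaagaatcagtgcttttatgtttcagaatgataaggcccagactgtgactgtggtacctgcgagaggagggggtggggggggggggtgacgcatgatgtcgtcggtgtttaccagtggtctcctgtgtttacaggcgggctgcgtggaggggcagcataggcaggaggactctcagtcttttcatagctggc
Meg3: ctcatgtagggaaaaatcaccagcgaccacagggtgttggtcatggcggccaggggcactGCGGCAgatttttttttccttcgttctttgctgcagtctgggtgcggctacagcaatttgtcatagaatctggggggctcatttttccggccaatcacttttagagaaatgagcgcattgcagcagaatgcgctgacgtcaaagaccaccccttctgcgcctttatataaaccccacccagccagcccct
The search found 2 matches in the Mest stretch, 1 in that of Plagl1, 1 in that of Meg3 and 0 in that of Dlk1. Where a gene had several starts, the one with the most CpG was shown, and the hexamer itself holds a CpG. Windows with fewer CpG, at chr6:30733256-30733555 for Mest and chr12:109545148-109545447 for Meg3, held 0 matches. The 250 bases before the Nnat start, read in the same way, held 0 matches, and its window of 300 bases held 1. RefSeq windows of 300 bases (250 before and 50 after a start) matched 35 of the 40 genes by symbol, in 52 windows. The hexamer, searched on both strands, was in 11 of these windows (21.2%) and in 3813 of all 32851 windows (11.6%). The 11 include 2 overlapping windows of Mest, at chr6:30737800-30738099 and chr6:30737803-30738102. By gene, 10 of the 35 held it, and no share by gene was taken over all windows. The median number of CpG per window was 15 in the imprinted genes and 7 over all windows. A match is a run of letters and no measure of binding or methylation.

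The read depth of the libraries is not known from the table. Each library held 9495 to 12000 symbols at 1 FPKM or more, and small and ribosomal RNA took 40.4% to 98.2% of the FPKM sum. The 3 adult libraries held the fewest symbols (9495 to 9624, against 10509 to 12000 in the others). Small and ribosomal RNA took 85.4% to 98.2% in adult and 60.9% to 72.2% in transplant. Embryo replicate 3 (97.7%) and teratoma replicate 3 (90.7%) lay within the adult range. In embryo replicate 2, 74 genes were listed at 0 while both other embryo libraries held at least 5 FPKM, against 6 to 27 in the other libraries, and 0 of the 40 genes were among them. A gene was tested where 3 or more libraries reached 1 FPKM (12699 genes), which kept 33 of the 40. The 7 left out were Ascl2 and Kcnq1, listed at 0 in all 12 libraries, and Phlda2, Rtl1, Usp29, Mkrn3 and Slc22a3. Magel2 passed only through the embryo group, so its lower values in the other groups were fixed by the filter. It is counted below among the genes lower than in embryo and among those highest in embryo. A gene was called changed at an adjusted p under 0.05 in limma, fitted on log2(FPKM + 1) over all 12 libraries, with Benjamini-Hochberg adjustment across every gene tested. A log2 change is on that scale, which understates the change of genes with low values, and is positive where the group named first is higher. Lost calls are named below for other scalings and for 1 library left out. Other settings were 0.1 in place of 1 added to FPKM, other filters and a log2 limit. Library weights, a replicate block and a fit of only the compared groups were also run. Losses under these other settings are named for some genes only.

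The summed level of the paternally expressed genes differed between groups far more than that of the maternally expressed genes. The 21 paternal genes summed to 1420.3, 1227 and 1534 FPKM in embryo, 621, 508 and 593 in teratoma, 182, 164 and 171 in transplant and 127, 106 and 116 in adult, in replicate order 1 to 3. No library of 1 group overlapped another group, and the order was embryo, teratoma, transplant, adult. Sgce alone took 53.4, 48.4 and 38.8 FPKM of the transplant sums and 7.36, 10.6 and 5.62 of the adult sums. The lack of overlap between transplant and adult rests on that gene. The 15 maternal genes summed to 657, 641 and 697 FPKM in embryo, 604, 508 and 473 in teratoma, 240.2, 168 and 239 in transplant and 584, 572 and 584 in adult. Here the transplant libraries were below all others, and the other 3 groups lay close together. Mest, Dlk1, Peg3, Plagl1 and Peg10 made up 82.4% to 84.4% of the paternal sum in embryo but 45.8% to 50.9% in transplant. Meg3, Rian and Mirg made up 81.4% to 84.9% of the maternal sum in embryo, 62.7% to 72.7% in transplant and 92.7% to 94.1% in adult. Both sums are thus set by a few abundant RNAs, and they describe those rather than each gene. The maternal sum also leaves out H19, which lies outside this set and was far higher in embryo than in the other groups (given below).

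**Figure D1:**
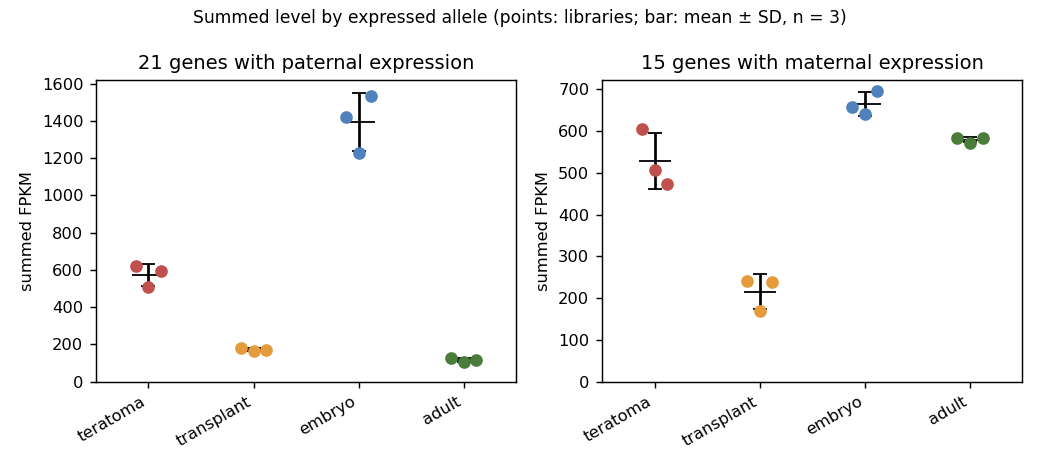
Summed FPKM (vertical axes) of the 21 paternally and the 15 maternally expressed genes in each of the 4 groups; points are libraries, bars the mean with the SD (n = 3). The paternal sum is 1394 ± 155 FPKM in embryo and 116 ± 10.4 in adult, while the maternal sum is 665 ± 28.8 and 579.8 ± 7.06.

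Adult and embryonic progenitors differed in 20 of the 33 tested genes, 2 higher and 18 lower in adult, where 52.8% of all tested genes were called (15.8% higher and 36.9% lower). The lower genes were led by Dlk1, Mest and Slc38a4, and they include Magel2, whose fall was fixed by the filter. The higher ones were the microRNA host Mirg and Inpp5f. The median log2 change of the 33 genes was -1.003, against -0.42 over all tested genes. Of the 18 paternal genes tested, 12 were lower and 0 higher (median -2.20), and of the 11 maternal genes 6 were lower and 1 higher (median -0.76). Of the 4 transcript-dependent genes, 1 was higher. Median-ratio scaling of the libraries moved the median of all genes to -0.03, with 3291 genes higher and 3281 lower against 2007 and 4692, and it left 6 imprinted genes higher and 17 lower. Changes below are therefore best read against the all-gene median.

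Teratoma-derived cells differed from embryonic ones in 13 of the 33 genes, 3 higher and 10 lower, where 26% of all tested genes were called (15.5% higher and 10.6% lower). The lower genes included Mest, Plagl1 and Nnat, and also Magel2, whose fall was fixed by the filter. The higher ones were Sgce, Copg2 and Ppp1r9a. The median was -0.24, against 0.01 over all genes. By allele, 6 paternal genes were lower and 1 higher, 3 maternal genes were lower and 2 higher, and 1 of the 4 transcript-dependent genes was lower. Quantile normalization split the calls of all genes into 1772 higher and 1800 lower, against 1965 and 1343.

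Against adult cells, teratoma-derived cells differed in 20 of 33 genes, 17 higher and 3 lower, where 45.4% of all tested genes were called (36.4% higher and 8.94% lower). Dlk1, Slc38a4 and Peg10 were the genes with the largest increases, and the 3 lower were H13, Mirg and Airn. The median was 0.82, against 0.50 over all genes. Of the paternal genes 12 were higher and 1 lower, and of the maternal genes 5 were higher and 1 lower. With median-ratio scaling, all genes split into 2893 higher and 2595 lower against 4628 and 1135, and the imprinted genes into 14 higher and 8 lower.

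After transplantation, 16 of the 33 genes were lower than in teratoma and 0 were higher, where 22.6% of all tested genes were called (4.18% higher and 18.5% lower). Dlk1, Slc38a4, Zdbf2 and Peg10 showed the largest decreases. The median was -0.73, against -0.28 over all genes. The lower genes were 10 of 18 paternal and 6 of 11 maternal genes, and 0 of the 4 transcript-dependent genes. With median-ratio scaling, all genes split into 924 higher and 1184 lower against 531 and 2343, and 13 imprinted genes were lower and 0 higher. Quantile normalization gave 13 lower and 1 higher, Osbpl5 (log2 change 0.83, adjusted p = 0.0379, against 0.49 and 0.222 as fitted here).

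Transplant and adult cells, both from postnatal muscle, differed in 19 of 33 genes, 11 higher and 8 lower in transplant, where 44.2% of all tested genes were called (27.3% higher and 16.9% lower). Sgce, Copg2, Ndn and Ppp1r9a were higher, and Mirg, Zdbf2, Rian and Meg3 lower. The median was 0.06, against 0.23 over all genes. Of the paternal genes 7 were higher and 3 lower, and of the maternal genes 4 were higher and 4 lower. Quantile normalization split all genes into 2519 higher and 2721 lower against 3462 and 2150, and the imprinted genes into 8 higher and 11 lower.

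Transplant and embryo differed in 23 of 33 genes, 3 higher and 20 lower in transplant, where 42.5% of all tested genes were called (14.9% higher and 27.6% lower). The 3 higher were Sgce, Copg2 and Osbpl5, and the 20 lower include Magel2, whose fall was fixed by the filter. The median was -1.21, against -0.24 over all genes. Of the paternal genes 12 were lower and 1 higher, and of the maternal genes 7 were lower and 2 higher. With median-ratio scaling, all genes split into 2551 higher and 2406 lower against 1889 and 3505, and the imprinted genes into 4 higher and 20 lower. Whether paternal and maternal genes differed from each other in any of these comparisons was not tested. Of the 11 maternal genes tested, 8 are assigned to that allele only in some tissues, so the counts by allele do not set like classes side by side.

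**Figure D2:**
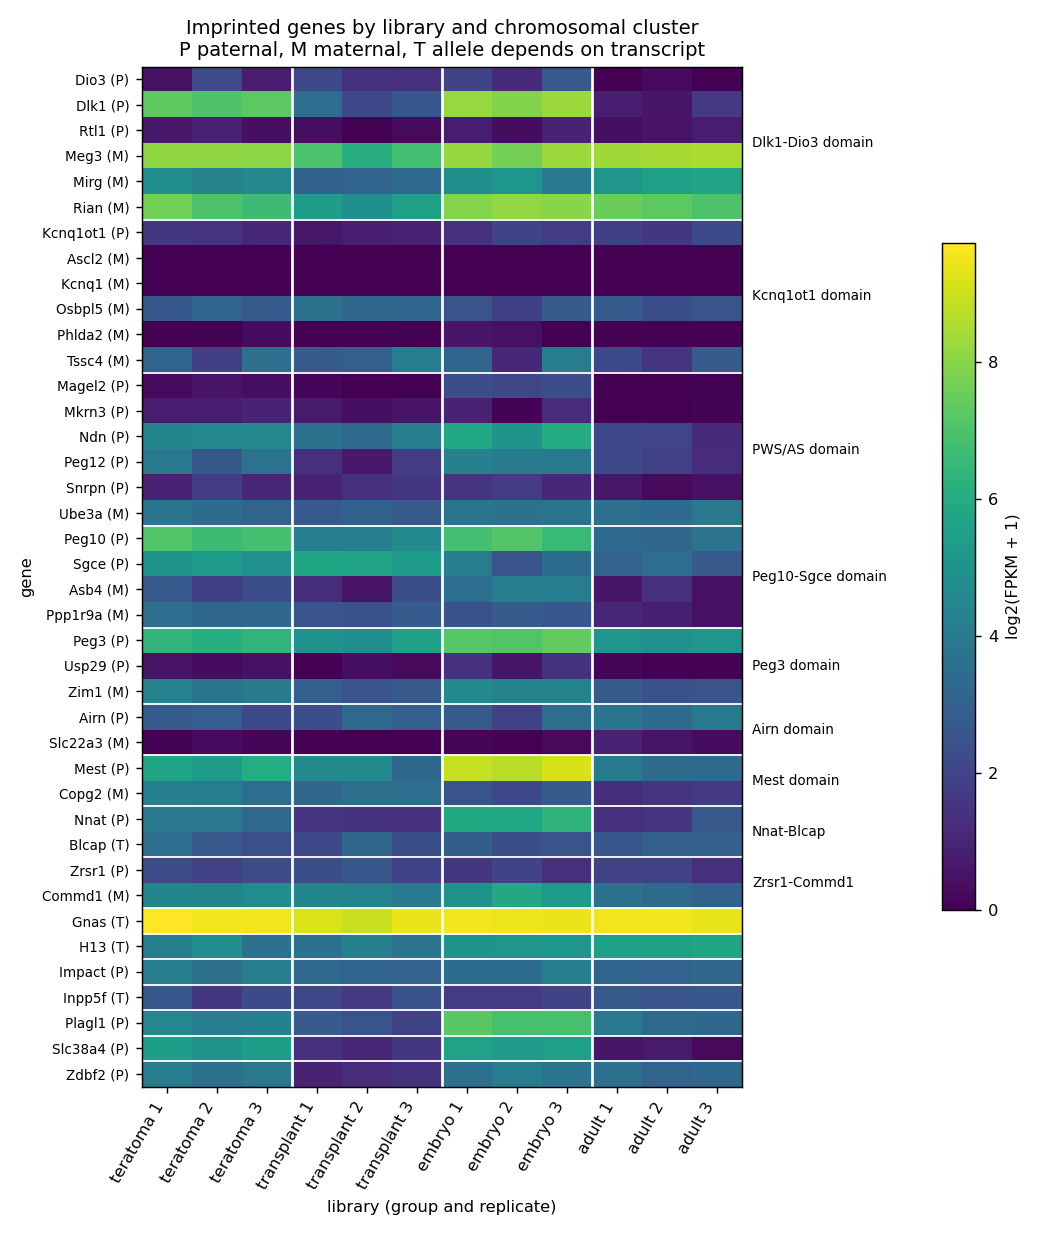
Level of each of the 40 genes (rows, grouped by chromosomal cluster; P paternal, M maternal, T allele depends on transcript) in the 12 libraries (columns), as log2(FPKM + 1). Of the 33 tested genes 16 have their highest mean in embryo, with Mest at 485 ± 82.4 FPKM there, while Sgce is brightest in transplant at 46.9 ± 7.44 FPKM and Ascl2 and Kcnq1 are listed at 0 throughout.

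Mest, a paternally expressed gene of the mesoderm that encodes a hydrolase-like protein, had the highest level of the paternal genes in embryo. Its gene lies at chr6:30723547-30748465 (GENCODE M21 on mm10, as for all gene positions here). It stood at 476, 407 and 571 FPKM in embryo, 51.7, 40.6 and 65.02 in teratoma, 23.8, 23.6 and 8.49 in transplant and 15.2, 9.36 and 9.12 in adult. The embryo libraries were far above the rest, teratoma was next, and transplant and adult overlapped. Mest was lower in adult than in embryo by 43.3 times in means (log2 change -5.34 with a standard error of 0.34, adjusted p = 2.07e-07) and lower in teratoma than in embryo by 9.25 times (log2 change -3.196, adjusted p = 4.89e-05). It was also lower in transplant than in teratoma (log2 change -1.55, adjusted p = 0.00766). Copg2, which encodes a coat protein of transport vesicles, lies tail to tail with Mest on the opposite strand and shares 912 bases with it. Its levels were 4.78, 3.47 and 6.05 FPKM in embryo, 17.4, 16.001 and 10.4 in teratoma, 8.33, 11.02 and 10.3 in transplant and 1.39, 1.73 and 2.14 in adult. Its order was another one: teratoma and transplant were above every native library. Copg2 was higher in teratoma than in embryo (log2 change 1.43, adjusted p = 0.00139) and than in adult (log2 change 2.48, adjusted p = 1.77e-05), and in transplant than in adult (log2 change 1.98, adjusted p = 7.64e-05). The library kit marks strand, but whether strand was used in counting is not stated, so reads from the shared bases cannot be told apart.

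Plagl1 (chr10:13060504-13131694) encodes a zinc finger transcription factor known to act on other imprinted genes. It stood at 150.2, 119 and 118 FPKM in embryo, 21.7, 16.9 and 18.4 in teratoma, 5.97, 4.699 and 2.74 in transplant and 13.8, 9.39 and 8.74 in adult. All 4 groups were separate, with embryo several times above teratoma and transplant the lowest. Plagl1 was lower in teratoma than in embryo (log2 change -2.700 with a standard error of 0.24, adjusted p = 1.33e-05), in transplant than in teratoma (log2 change -1.91, adjusted p = 0.000285) and in transplant than in adult (log2 change -1.11, adjusted p = 0.00284). A higher level in teratoma than in adult (log2 change 0.799, adjusted p = 0.0176) was called, but not with median-ratio scaling (0.299, adjusted p = 0.352), quantile normalization (0.45, adjusted p = 0.159) and small and ribosomal RNA left out (0.65, adjusted p = 0.066), nor without teratoma replicate 1, or adult replicate 2 or 3 (adjusted p from 0.0583 to 0.0674). Slc38a4 (chr15:96994820-97055956) encodes an amino acid transporter of fetal and placental tissue. Its levels were 47.6, 40.9 and 45.5 FPKM in embryo, 43.1, 29.96 and 41.3 in teratoma, 1.48, 1.06 and 1.99 in transplant and 0.493, 0.622 and 0.177 in adult. Embryo and teratoma overlapped, and both were far above transplant and adult. Slc38a4 was lower in adult than in embryo (log2 change -5.01, adjusted p = 2.08e-08) and in transplant than in teratoma (log2 change -3.96 with a standard error of 0.22, adjusted p = 8.35e-07). The difference between teratoma and embryo was not called (log2 change -0.24, adjusted p = 0.455).

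Peg3 (chr7:6703892-6730431), a paternally expressed zinc finger protein made in muscle progenitors and in interstitial muscle cells, stood at 141, 134 and 169 FPKM in embryo, 81.6, 65.3 and 82.1 in teratoma, 30.6, 26.2 and 46.1 in transplant and 33.9, 29.4 and 32.5 in adult. Embryo was above teratoma, and teratoma above transplant and adult, which overlapped. Peg3 was lower in teratoma than in embryo (log2 change -0.95, adjusted p = 0.00408), in transplant than in teratoma (log2 change -1.16, adjusted p = 0.00161) and in adult than in embryo (log2 change -2.17, adjusted p = 2.87e-06). Zim1, a maternally expressed zinc finger gene next to it, stood at 23.6, 20.1 and 20.04 FPKM in embryo, 19.2, 12.7 and 14.96 in teratoma, 6.44, 4.803 and 5.61 in transplant and 6.39, 4.501 and 4.82 in adult. Its groups followed the same order as those of Peg3, with transplant and adult overlapping. Zim1 was lower in adult than in embryo (log2 change -1.84, adjusted p = 1.2e-05) and in transplant than in teratoma (log2 change -1.32, adjusted p = 0.000896). Peg3 and Zim1, which textbooks assign to opposite parental alleles, were thus both lower in these comparisons. For Zim1 that assignment holds only in some tissues, and the allele read here was not measured. Usp29, whose start is 147 bases from that of Peg3 in the opposite direction, did not pass the filter. It was between 0.5096 and 1.66 FPKM in embryo and between 0 and 0.423 in the other groups.

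The Dlk1-Dio3 domain on chromosome 12 holds the paternally expressed proteins Dlk1, Rtl1 and Dio3 and the maternally expressed noncoding RNAs Meg3, Rian and Mirg. Dlk1 (chr12:109452823-109463336) is a transmembrane protein related to Notch ligands that is made in fetal muscle and lost from most adult tissues. It stood at 304, 238 and 312 FPKM in embryo, 159.9, 132 and 154 in teratoma, 10.5, 3.49 and 5.44 in transplant and 0.7598, 0.492 and 2.03 in adult. The groups did not overlap, and the fall from embryo to adult covered 2 orders of magnitude. Dlk1 was lower in adult than in embryo (log2 change -7.15 with a standard error of 0.32, adjusted p = 2.51e-08) and in transplant than in teratoma (log2 change -4.43 with a standard error of 0.32, adjusted p = 1.09e-05). Transplant cells still held more than adult cells (log2 change 1.796, adjusted p = 0.00091). The difference between teratoma and embryo missed the threshold (log2 change -0.93, adjusted p = 0.054) and passed it under quantile normalization (log2 change -1.02, adjusted p = 0.0461).

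Meg3 (chr12:109541001-109571726), the long noncoding RNA of the same domain whose gene starts 77665 bases past the end of Dlk1, showed another order. Its levels were 290.0, 206 and 308 FPKM in embryo, 277, 279.7 and 261 in teratoma, 125, 68.8 and 112 in transplant and 328, 339 and 366 in adult. Adult cells, which had almost no Dlk1 RNA, had the highest Meg3 values, and the transplant libraries were below all others. Meg3 was lower in transplant than in teratoma (log2 change -1.45 with a standard error of 0.22, adjusted p = 0.000792), than in adult (log2 change -1.79, adjusted p = 6.12e-05) and than in embryo (log2 change -1.41, adjusted p = 0.000269). The adult-embryo difference was not called (log2 change 0.38, adjusted p = 0.159), but Meg3 was called higher in adult after median-ratio scaling (log2 change 0.92, adjusted p = 0.00361) and after small and ribosomal RNA were left out (0.55, adjusted p = 0.0467).

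Rian, the host of a group of box C/D small nucleolar RNAs, stood at 240.2, 282 and 255 FPKM in embryo, 201, 127 and 101 in teratoma, 42.6, 28.7 and 45.5 in transplant and 181, 153 and 128 in adult. Mirg, the host of a microRNA cluster, stood at 27.9, 33.7 and 15.1 FPKM in embryo, 26.4, 19.6 and 22.7 in teratoma, 7.17, 7.897 and 9.67 in transplant and 32.5, 45.5 and 50.2 in adult. In both RNAs every transplant library was below every other library. Rian was lower in transplant than in teratoma (log2 change -1.82, adjusted p = 0.000466) and than in adult (log2 change -1.97, adjusted p = 7.96e-05). Mirg was lower in transplant than in teratoma (log2 change -1.37, adjusted p = 0.00395) and than in adult (log2 change -2.23 with a standard error of 0.27, adjusted p = 5.99e-05). In adult against embryo the 2 RNAs went opposite ways, Rian lower (log2 change -0.76, adjusted p = 0.0217) and Mirg higher (log2 change 0.77, adjusted p = 0.0296). The Rian call was lost with median-ratio scaling (-0.22, adjusted p = 0.457) and small and ribosomal RNA left out (-0.59, adjusted p = 0.0565), and without embryo replicate 2, or adult replicate 3 (adjusted p from 0.0563 to 0.0831). The Mirg call was lost without embryo replicate 3, or adult replicate 2 or 3 (adjusted p from 0.0839 to 0.12), and with only the compared groups in the fit (adjusted p = 0.0893). Against embryo, teratoma was lower in Rian (log2 change -0.91, adjusted p = 0.0183), a call lost without teratoma replicate 2 or 3, or embryo replicate 2 (adjusted p from 0.0509 to 0.0758). Against adult, teratoma was lower in Mirg (log2 change -0.86, adjusted p = 0.0212), a call lost without teratoma replicate 2 or 3, or adult replicate 2 or 3 (adjusted p from 0.0509 to 0.0783).

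The uncharacterised transcript 6430411K18Rik, which lies in the same stretch and is not among the 40 genes, was added after its values were seen. It stood at 21.6, 28.3 and 17.2 FPKM in embryo, 18.2, 15.1 and 13.7 in teratoma, 4.397, 4.63 and 2.97 in transplant and 19.3, 18.1 and 26.5 in adult. Its transplant libraries were again the lowest (log2 change -1.75, adjusted p = 0.000352 against teratoma and log2 change -2.15, adjusted p = 2.65e-05 against adult). The box C/D RNA AF357355, also outside the 40, was read at 10233, 4006 and 15222 FPKM in embryo, 13732, 10561 and 10276 in teratoma, 4603, 6746 and 5488 in transplant and 32408, 36549 and 52525 in adult. AF357425 was read at 3046, 631 and 1924 FPKM in embryo, 975, 6408 and 2907 in teratoma, 4028, 6650.5 and 4267 in transplant and 15509, 17527 and 20223 in adult. Both were highest in the adult libraries, where small and ribosomal RNA as a whole took 85.4% to 98.2% of the FPKM sum. Whether these RNAs stand apart from that share was not tested. FPKM of such short genes are uncertain in a library kit of this kind. Of 57 microRNA precursor genes between Dlk1 and Dio3, 46 were listed at 0 in all 12 libraries. Dio3, which encodes the deiodinase that inactivates thyroid hormone, was between 1.24 and 5.61 FPKM in embryo and between 0 and 0.231 in adult, where 2 of 3 libraries were listed at 0. It was lower in adult than in embryo (log2 change -1.87, adjusted p = 0.00591), and it was higher in transplant than in adult (log2 change 1.504, adjusted p = 0.0236), a call lost without transplant replicate 1, or adult replicate 1 or 3 (adjusted p from 0.0628 to 0.0916). Rtl1, a retrotransposon-derived gene of placenta and fetal muscle, did not pass the filter, with 0.04903 to 0.977 FPKM over the 12 libraries.

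**Figure D3:**
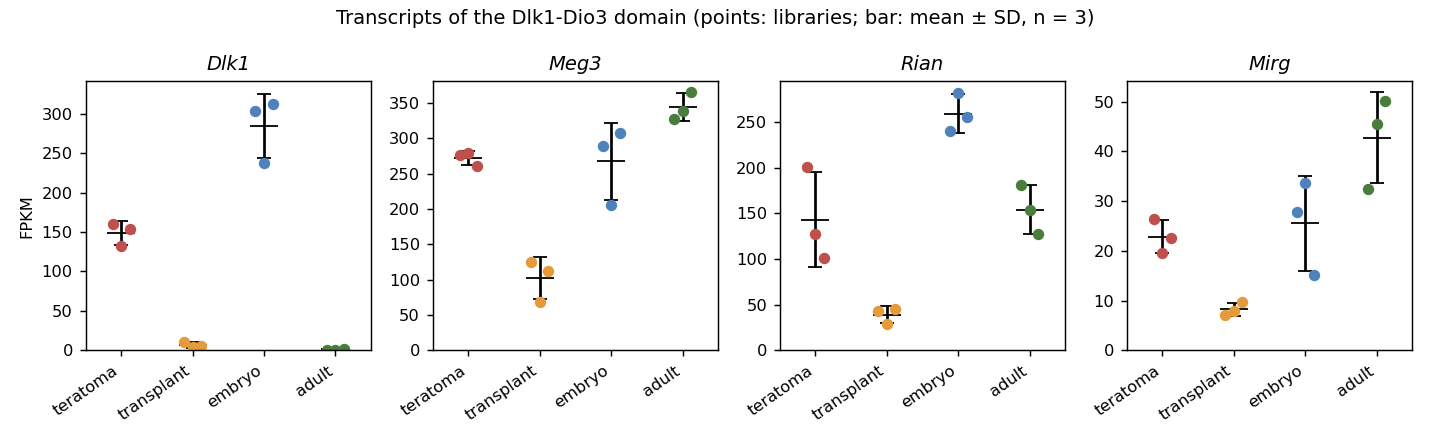
FPKM (vertical axes, each from 0) of genes of the Dlk1-Dio3 domain in the 4 groups; points are libraries, bars the mean with the SD (n = 3). Dlk1 is 1.09 ± 0.821 FPKM in adult where Meg3 is 345 ± 19.8, and Meg3 is lowest in transplant, at 102 ± 29.4.

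The Peg10-Sgce domain on chromosome 6 showed a second split, between genes that start within 99 bases of each other and are both paternally expressed. Peg10 (chr6:4747306-4760517), a retrotransposon-derived gene needed in placenta, stood at 112, 138 and 92.7 FPKM in embryo, 134, 102 and 116 in teratoma, 17.4, 17.2 and 24.6 in transplant and 9.49, 8.54 and 11.9 in adult. Embryo and teratoma overlapped, transplant was lower and adult lowest. Peg10 was lower in transplant than in teratoma (log2 change -2.53 with a standard error of 0.20, adjusted p = 1.66e-05) and in adult than in embryo (log2 change -3.38, adjusted p = 1.28e-07), with no call between teratoma and embryo (log2 change 0.05, adjusted p = 0.885). Sgce (chr6:4674350-4747207) encodes epsilon-sarcoglycan, a membrane glycoprotein of the sarcoglycan family, and stood at 16.3, 4.75 and 9.998 FPKM in embryo, 31.97, 38.3 and 29.3 in teratoma, 53.4, 48.4 and 38.8 in transplant and 7.36, 10.6 and 5.62 in adult. All 6 stem-cell-derived libraries were above all 6 native ones. Sgce was higher in teratoma than in embryo (log2 change 1.72 with a standard error of 0.34, adjusted p = 0.00292) and in transplant than in adult (log2 change 2.46 with a standard error of 0.34, adjusted p = 0.000145), and the transplant-teratoma difference was not called (log2 change 0.48, adjusted p = 0.337). So Peg10 was 5.96 times lower in transplant than in teratoma by group means, while Sgce was 1.41 times higher there. Fibroblast markers were also highest in transplant (a sum of 2325 to 3472 FPKM over 10 markers, against 1462 to 1865 in teratoma), and their part in the level of Sgce was not tested.

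The 2 genes of that domain that are assigned to the maternal allele in some tissues also parted. Ppp1r9a, which encodes the actin-binding protein neurabin, stood at 4.45, 6.16 and 5.31 FPKM in embryo, 10.2, 8.42 and 8.75 in teratoma, 4.87, 4.45 and 6.07 in transplant and 1.08, 0.807 and 0.364 in adult. Teratoma was the highest and adult the lowest, and embryo and transplant overlapped. Ppp1r9a was higher in transplant than in adult (log2 change 1.82, adjusted p = 7.62e-05) and lower in adult than in embryo (log2 change -1.86, adjusted p = 3e-05). The call of teratoma against embryo (log2 change 0.69, adjusted p = 0.0435) was lost with small and ribosomal RNA left out (0.74, adjusted p = 0.12), and without teratoma replicate 1, 2 or 3, transplant replicate 1, 2 or 3, embryo replicate 1 or 3, or adult replicate 2 (adjusted p from 0.0513 to 0.121). The call of transplant against teratoma (log2 change -0.73, adjusted p = 0.0389) was lost with median-ratio scaling (-0.45, adjusted p = 0.212), quantile normalization (-0.49, adjusted p = 0.167) and small and ribosomal RNA left out (-0.59, adjusted p = 0.243), and without teratoma replicate 1, 2 or 3, transplant replicate 1 or 2, or adult replicate 2 (adjusted p from 0.0531 to 0.128). Asb4, a substrate adaptor of ubiquitin ligases, stood at 10.9, 16.6 and 16.3 FPKM in embryo, 5.69, 2.62 and 4.01 in teratoma, 1.41, 0.436 and 3.997 in transplant and 0.513, 1.48 and 0.367 in adult. The embryo libraries were above all others. Asb4 was lower in adult than in embryo (log2 change -3.15, adjusted p = 6.51e-05) and in transplant than in embryo (log2 change -2.57, adjusted p = 0.000459). Its lower level in teratoma than in embryo (log2 change -1.63, adjusted p = 0.0146) was not called without teratoma replicate 2 (adjusted p = 0.0645). Nor was it called with 0.1 in place of 1 added to FPKM (adjusted p = 0.0758).

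**Figure D4:**
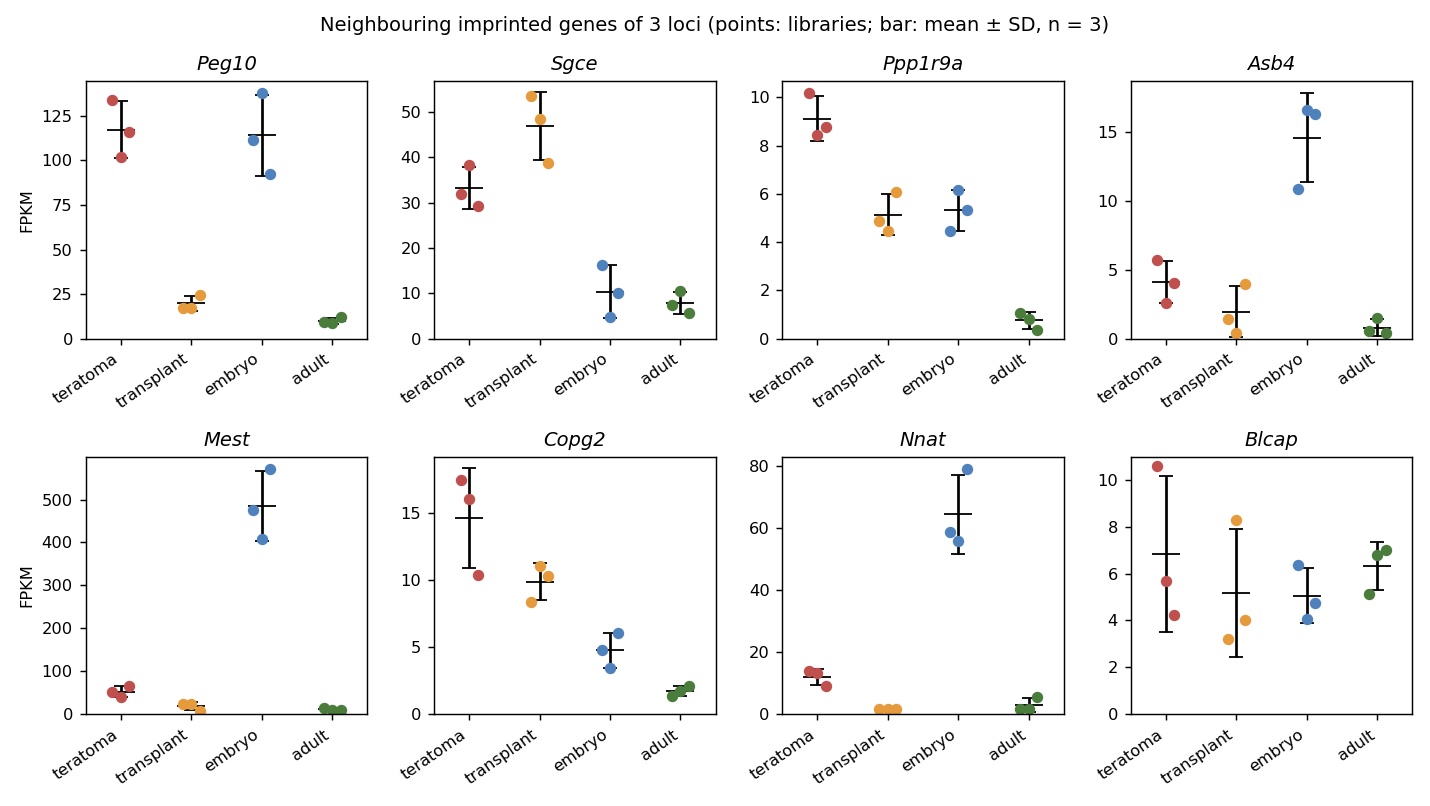
FPKM (vertical axes, each from 0) of neighbouring imprinted genes in the 4 groups; points are libraries, bars the mean with the SD (n = 3). Peg10 falls from 117 ± 16.2 in teratoma to 19.7 ± 4.21 FPKM in transplant, whereas Sgce is 33.2 ± 4.62 and 46.9 ± 7.44.

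Nnat encodes neuronatin, a small membrane protein of developing brain and other endocrine and fetal tissues, and lies inside an intron of Blcap on the opposite strand. It stood at 58.7, 55.7 and 79.02 FPKM in embryo, 13.9, 13.4 and 9.11 in teratoma, 1.82, 1.71 and 1.63 in transplant and 1.56, 1.798 and 5.61 in adult. Embryo was above teratoma and teratoma above both other groups, which overlapped. Nnat was lower in teratoma than in embryo (log2 change -2.32, adjusted p = 0.000313), in transplant than in teratoma (log2 change -2.25, adjusted p = 0.000641) and in adult than in embryo (log2 change -4.16, adjusted p = 8.57e-07). Blcap, a small membrane protein gene, stood at 6.36, 4.06 and 4.74 FPKM in embryo, 10.6, 5.67 and 4.24 in teratoma, 3.196, 8.28 and 4.02 in transplant and 5.15, 6.79 and 7.003 in adult. It had no call against embryo in adult (log2 change 0.28, adjusted p = 0.519) or teratoma (log2 change 0.31, adjusted p = 0.553), and none in transplant against teratoma (log2 change -0.35, adjusted p = 0.509). The host gene and the gene inside it were thus not called together in any of these 3 comparisons.

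Zrsr1, an intronless splicing factor gene, lies within Commd1, which takes part in copper handling, on the other strand. Zrsr1 ranged from 1.47 to 5.03 FPKM over the 12 libraries and was called in 0 of the 6 comparisons. In transplant against embryo (log2 change 0.68, adjusted p = 0.0659) it was called higher with median-ratio scaling (log2 change 0.899, adjusted p = 0.023), quantile normalization (0.84, adjusted p = 0.0364) and small and ribosomal RNA left out (1.03, adjusted p = 0.0475). Commd1 stood at 30.2, 57.01 and 36.1 FPKM in embryo, 21.2, 21.1 and 24.8 in teratoma, 21.4, 19.9 and 15.2 in transplant and 11.3, 9.23 and 7.19 in adult. Embryo was above teratoma and adult was below the other 3 groups. Commd1 was lower in adult than in embryo (log2 change -2.01, adjusted p = 2.38e-05) and higher in transplant than in adult (log2 change 0.96, adjusted p = 0.00643). Its lower level in teratoma than in embryo (log2 change -0.804, adjusted p = 0.0269) was not called without teratoma replicate 1 or 2, or embryo replicate 2 (adjusted p from 0.0691 to 0.094). Nor was it called with library weights (adjusted p = 0.0562) or with only the compared groups in the fit (adjusted p = 0.0631). In both nested pairs the reads of the shared bases cannot be told apart without strand.

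In the Prader-Willi/Angelman domain on chromosome 7, Ndn and Magel2 encode proteins of the MAGE family. Ndn stood at 54.6, 31.6 and 63.3 FPKM in embryo, 20.6, 22.1 and 23.3 in teratoma, 11.3, 9.19 and 15.8 in transplant and 3.41, 3.12 and 1.24 in adult. The 4 groups did not overlap, and the order was embryo, teratoma, transplant, adult. Ndn was lower in adult than in embryo (log2 change -3.83 with a standard error of 0.31, adjusted p = 1.14e-06) and higher in transplant than in adult (log2 change 1.898, adjusted p = 0.000445), while the transplant-teratoma difference was not called (log2 change -0.84, adjusted p = 0.0687). The call of teratoma against embryo (log2 change -1.09, adjusted p = 0.0218) was lost without teratoma replicate 1 or 2, or embryo replicate 1 or 3 (adjusted p from 0.0598 to 0.0775). That call was also lost with 0.1 in place of 1 added to FPKM (adjusted p = 0.0518). Magel2 was between 3.23 and 4.02 FPKM in embryo and under 0.443 in all other libraries. Having passed the filter through embryo alone, it had to differ there. Its lower levels in adult (log2 change -2.22) and in teratoma (log2 change -1.85) than in embryo were fixed by that filter and are no result. Peg12, a gene of the Frat family that acts on Wnt signalling, stood at 17.7, 15.7 and 14.3 FPKM in embryo, 14.2, 5.33 and 11.9 in teratoma, 1.51, 0.606 and 2.31 in transplant and 3.48, 2.82 and 1.38 in adult. Embryo and teratoma were above transplant and adult, which overlapped. Peg12 was lower in transplant than in teratoma (log2 change -2.18, adjusted p = 0.00162) and in adult than in embryo (log2 change -2.29, adjusted p = 0.000256).

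Ube3a, the ubiquitin ligase of this domain that is maternally expressed in neurons, was lowest in transplant. It stood at 12.4, 11.8 and 12.4 FPKM in embryo, 13.2, 9.67 and 7.84 in teratoma, 5.58, 7.205 and 5.53 in transplant and 11.1, 9.49 and 13.9 in adult. The transplant libraries were below all others. Ube3a was lower in transplant than in adult (log2 change -0.81, adjusted p = 0.0086) and than in embryo (log2 change -0.900, adjusted p = 0.00467). The call against teratoma (log2 change -0.64, adjusted p = 0.0475) was lost with median-ratio scaling (-0.35, adjusted p = 0.225), quantile normalization (-0.39, adjusted p = 0.172) and small and ribosomal RNA left out (-0.49, adjusted p = 0.156), and without teratoma replicate 1 or 2, transplant replicate 1, 2 or 3, embryo replicate 1 or 3, or adult replicate 1, 2 or 3 (adjusted p from 0.0505 to 0.181). Ube3a in teratoma against adult was not called (log2 change -0.167, adjusted p = 0.54). It was called lower in teratoma with median-ratio scaling (-0.66, adjusted p = 0.0141) and quantile normalization (-0.53, adjusted p = 0.0439). Snrpn, which encodes a splicing protein, was between 0.972 and 2.45 FPKM in the embryo and stem-cell-derived libraries and between 0.1801 and 0.545 in adult. It was lower in adult than in embryo (log2 change -1.003, adjusted p = 0.0116), a call lost with quantile normalization (-0.46, adjusted p = 0.27). Its call of teratoma against adult (log2 change 0.84, adjusted p = 0.033) was lost with median-ratio scaling (0.64, adjusted p = 0.101) and quantile normalization (0.02, adjusted p = 0.96), and without teratoma replicate 2, or adult replicate 2 or 3 (adjusted p from 0.0742 to 0.141). Its call of transplant against adult (log2 change 0.88, adjusted p = 0.0279) was lost with quantile normalization (0.45, adjusted p = 0.298), and without transplant replicate 2 or 3, or adult replicate 2 or 3 (adjusted p from 0.0656 to 0.0951). Mkrn3, a RING finger gene, did not pass the filter and was between 0 and 1.35 FPKM.

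In the Kcnq1ot1 domain, an antisense noncoding RNA is known to silence its neighbours on the paternal copy. Kcnq1ot1 ranged from 0.556 to 0.921 FPKM in transplant and from 1.96 to 3.54 in adult. It was lower in transplant than in adult (log2 change -1.06, adjusted p = 0.00603) and than in embryo (log2 change -0.89, adjusted p = 0.0157). The second call was lost without transplant replicate 1, or embryo replicate 2 (adjusted p from 0.0521 to 0.0568). Reads from the bases that Kcnq1ot1 shares with Kcnq1 on the opposite strand cannot be told apart without strand. Kcnq1, the potassium channel gene that holds it, and Ascl2, a placental transcription factor, were listed at 0 throughout, and Phlda2, a growth-limiting gene of placenta, was between 0 and 0.5198 FPKM. Osbpl5, an oxysterol-binding protein gene, stood at 4.599, 2.62 and 5.83 FPKM in embryo, 5.36, 8.14 and 5.69 in teratoma, 11.6, 8.55 and 7.95 in transplant and 6.095, 4.02 and 4.56 in adult. Its transplant values were above the embryo values. Osbpl5 was higher in transplant than in embryo (log2 change 0.99, adjusted p = 0.0117) and than in adult (log2 change 0.82, adjusted p = 0.0294). The first call was lost without transplant replicate 1 (adjusted p = 0.0527). The second was lost with median-ratio scaling (0.64, adjusted p = 0.0638) and quantile normalization (0.58, adjusted p = 0.0838), and without transplant replicate 1 or 2, or adult replicate 2 or 3 (adjusted p from 0.0513 to 0.114). Tssc4 stood at 7.703, 1.17 and 16.5 FPKM in embryo, 7.803, 2.55 and 11.2 in teratoma, 5.91, 6.45 and 16.6 in transplant and 3.601, 1.74 and 6.06 in adult. Its groups overlapped widely and it was called in 0 of the 6 comparisons.

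Airn is the antisense RNA that silences Igf2r and Slc22a3 on the paternal copy, and it shares 28354 bases with Igf2r. Use of strand in counting is not stated, so reads from these shared bases cannot be told apart. Airn stood at 5.77, 2.82 and 10.3 FPKM in embryo, 6.12, 6.47 and 3.51 in teratoma, 3.87, 9.17 and 6.48 in transplant and 12.6, 9.47 and 14.4 in adult. The adult values were mostly the highest. Airn was lower in teratoma than in adult (log2 change -1.07, adjusted p = 0.0415), a call lost without teratoma replicate 1, 2 or 3, transplant replicate 3, embryo replicate 1, or adult replicate 1 or 3 (adjusted p from 0.052 to 0.143). That call was also lost with 0.1 in place of 1 added to FPKM (adjusted p = 0.0522), without the filter (adjusted p = 0.0655) and with a replicate block (adjusted p = 0.0601). The adult-embryo difference of Airn missed the threshold (log2 change 0.97, adjusted p = 0.0533) and passed it with median-ratio scaling (log2 change 1.45, adjusted p = 0.00454). Slc22a3, an organic cation transporter gene, did not pass the filter and was between 0 and 0.959 FPKM.

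Among the genes that stand alone, Zdbf2 (chr1:63273265-63314576), a paternally expressed zinc finger gene, was low in 1 group only. It stood at 10.7, 16.3 and 12.1 FPKM in embryo, 16.4, 11.8 and 13.5 in teratoma, 0.9502, 1.34 and 1.68 in transplant and 10.98, 7.65 and 8.74 in adult. Each transplant library was below 2 FPKM and each other library above 7 FPKM. Zdbf2 was lower in transplant than in teratoma (log2 change -2.68 with a standard error of 0.22, adjusted p = 1.95e-05), than in adult (log2 change -2.12, adjusted p = 2.56e-05) and than in embryo (log2 change -2.59, adjusted p = 3.87e-06), and the adult-embryo difference was not called (log2 change -0.46, adjusted p = 0.101). H13 encodes signal peptide peptidase and stood at 32.2, 32.9 and 33.8 FPKM in embryo, 17.4, 26.04 and 11.2 in teratoma, 11.2, 18.3 and 12.3 in transplant and 44.6, 47.1 and 53.7 in adult. All stem-cell-derived libraries were below all native ones. H13 was lower in teratoma (log2 change -1.43, adjusted p = 0.000874) and in transplant (log2 change -1.75 with a standard error of 0.26, adjusted p = 0.000232) than in adult and in transplant than in embryo (log2 change -1.21, adjusted p = 0.00249). Its call of teratoma against embryo (log2 change -0.896, adjusted p = 0.0233) was lost without teratoma replicate 1 or 3, or embryo replicate 3 (adjusted p from 0.0532 to 0.0864). That call was also lost with library weights (adjusted p = 0.0732) and with only the compared groups in the fit (adjusted p = 0.0693).

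Gnas encodes the stimulatory G protein subunit, and its symbol pools transcripts of both alleles. It was the most abundant of the 40 genes and stood at 761, 717 and 699 FPKM in embryo, 853, 759 and 745 in teratoma, 585, 499 and 708 in transplant and 736, 741 and 663 in adult. The teratoma libraries were above all adult and transplant libraries, and the other groups overlapped. Of the 6 comparisons 0 were called, though with median-ratio scaling Gnas was higher in adult than in embryo (log2 change 0.52, adjusted p = 0.0226) and lower in transplant than in adult (log2 change -0.48, adjusted p = 0.0331). Impact, a translation regulator, stood at 9.79, 9.804 and 16.9 FPKM in embryo, 16.7, 11.003 and 16.5 in teratoma, 9.07, 7.71 and 7.31 in transplant and 7.703, 7.35 and 8.26 in adult. Impact was higher in teratoma than in adult (log2 change 0.82, adjusted p = 0.0128), a call lost with median-ratio scaling (0.33, adjusted p = 0.21) and quantile normalization (0.41, adjusted p = 0.169). Its call of transplant against teratoma (log2 change -0.78, adjusted p = 0.0312) was lost with median-ratio scaling (-0.49, adjusted p = 0.128), quantile normalization (-0.53, adjusted p = 0.119) and small and ribosomal RNA left out (-0.62, adjusted p = 0.0915), and without teratoma replicate 1 or 3, or transplant replicate 1, 2 or 3 (adjusted p from 0.0532 to 0.114). Inpp5f, a phosphoinositide phosphatase gene, stood at 2.28, 2.29 and 2.99 FPKM in embryo, 5.44, 1.99 and 3.53 in teratoma, 3.204, 2.04 and 4.47 in transplant and 5.78, 4.91 and 5.41 in adult. It was higher in adult than in embryo (log2 change 0.86, adjusted p = 0.03), a call lost without embryo replicate 1 or 2, or adult replicate 1, 2 or 3 (adjusted p from 0.0542 to 0.0802).

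The step from embryo to adult and the step from teratoma to transplant share no library, so they can be set side by side. Of the 18 genes lower in adult and the 16 lower in transplant, 11 were lower in both (61.1% of the first and 68.8% of the second): Dlk1, Mest, Nnat, Peg10, Peg12, Peg3, Plagl1, Ppp1r9a, Rian, Slc38a4 and Zim1. Over all tested genes, 1101 were lower in both, which is 23.5% of the 4692 and 46.99% of the 2343. The difference between the 2 steps was itself tested. It was called for 17 of 33 genes, 4 higher and 13 lower, where 38.9% of all tested genes were called (17.2% higher and 21.7% lower). With median-ratio scaling the imprinted genes split into 8 higher and 12 lower. A negative value means that the adult-embryo change was the lower of the 2. The 13 include Magel2, whose fall was fixed by the filter. Mest (log2 change -3.79, adjusted p = 0.000138) and Ndn (log2 change -2.99, adjusted p = 0.000321) went further down in the native step. Zdbf2 (log2 change 2.22, adjusted p = 0.000278) went further down in the transplant step. Mirg (log2 change 2.14, adjusted p = 0.00112) and Meg3 (log2 change 1.84, adjusted p = 0.000743) were lower in the transplant step alone. In the native step Mirg was higher (log2 change 0.77) and Meg3 was not called (log2 change 0.38). By highest group mean, 16 of the 33 genes peaked in embryo (48.5%, against 39.7% of all tested genes) and 17 were lowest in adult (51.5%, against 47.5%), so the place of the peaks was near that of genes in general.

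**Figure D5:**
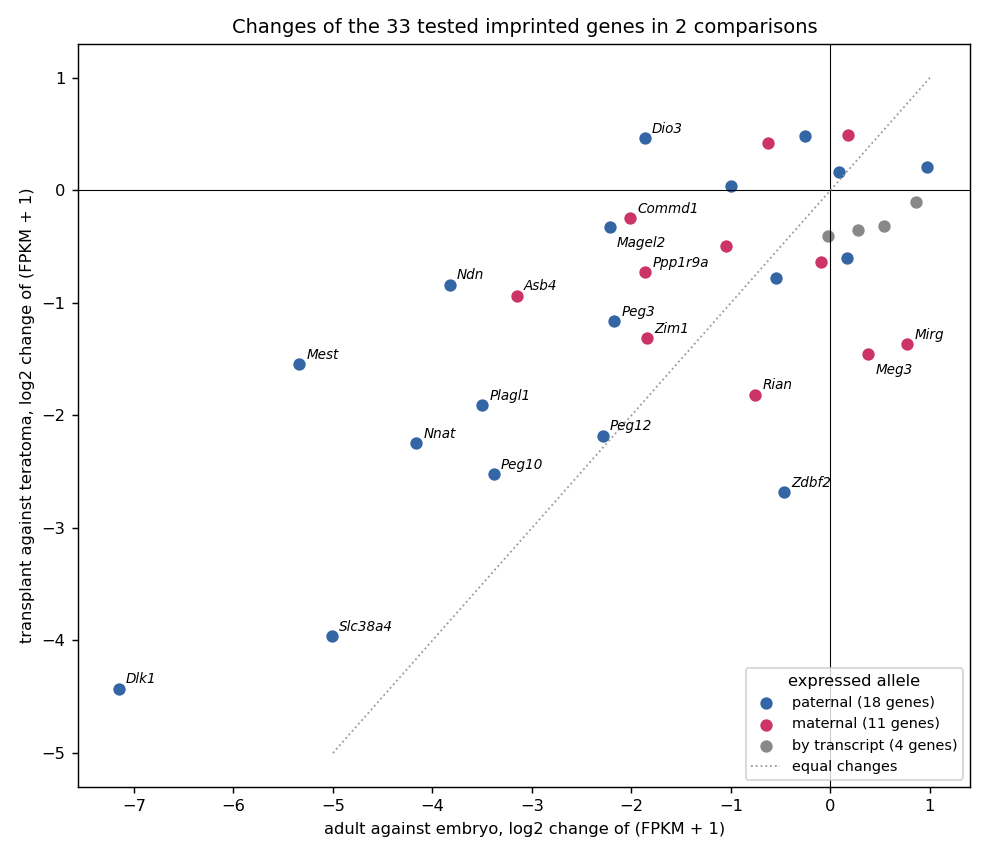
Log2 change of (FPKM + 1) in adult against embryo (horizontal axis) and in transplant against teratoma (vertical axis) for the 33 tested genes, coloured by expressed allele. Dlk1 lies lowest at -7.15 and -4.43, while Meg3, at 0.38 and -1.45, and Zdbf2, at -0.46 and -2.68, lie low on the vertical axis alone.

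Factors that read and copy DNA methylation and guard imprints were described as a list of 24 genes, 20 of them tested. Their median log2 change was -1.02 in adult against embryo and -0.76 in transplant against teratoma, against -0.42 and -0.28 over all tested genes. In adult against embryo 4 were higher and 12 lower, where 15.8% and 36.9% of all tested genes were. In transplant against teratoma 0 were higher and 12 lower (all genes 4.18% and 18.5%), and in teratoma against embryo 2 and 7 (15.5% and 10.6%). In teratoma against adult 12 were higher and 2 lower (36.4% and 8.94%), in transplant against adult 3 and 6 (27.3% and 16.9%), and in transplant against embryo 0 and 13 (14.9% and 27.6%). Zfp57, which binds the methylated hexamer shown above, stood at 12.3, 17.6 and 18.9 FPKM in embryo, 7.402, 5.67 and 6.89 in teratoma, 1.29, 2.099 and 2.59 in transplant and 0.258, 0.589 and 0.2298 in adult. The groups did not overlap, in the order embryo, teratoma, transplant, adult. It was lower in adult than in embryo (log2 change -3.66, adjusted p = 3.39e-07) and in transplant than in teratoma (log2 change -1.37, adjusted p = 0.00256). Uhrf1, which brings the maintenance methyltransferase to newly copied DNA, was 54.5 ± 4.44 FPKM (SD, n = 3) in embryo, 16.7 ± 2.88 in teratoma, 1.77 ± 0.836 in transplant and 1.48 ± 0.623 in adult (log2 change -4.52, adjusted p = 9.3e-08 in adult against embryo). Dnmt1, that methyltransferase, was 36.6 ± 3.46 FPKM (SD, n = 3) in embryo, 17.3 ± 2.17 in teratoma, 3.89 ± 0.298 in transplant and 2.48 ± 0.577 in adult (log2 change -3.45, adjusted p = 6.09e-08). Uhrf1 and Dnmt1 are also known to follow DNA replication. Zfp57, Uhrf1 and Dnmt1 are all among the 12 genes lower in adult than in embryo, and the 4 higher ones are not named here.

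Other genes of the same chromosomal domains, a list of 31 of which 23 were tested, had a median log2 change of -0.91 in adult against embryo and of -0.48 in transplant against teratoma, against -0.42 and -0.28 over all tested genes. In adult against embryo 6 were higher and 11 lower (all genes 15.8% and 36.9%), in teratoma against embryo 6 and 7 (15.5% and 10.6%), and in transplant against teratoma 0 and 8 (4.18% and 18.5%). In teratoma against adult 9 were higher and 4 lower (36.4% and 8.94%), in transplant against adult 6 and 5 (27.3% and 16.9%), and in transplant against embryo 5 and 9 (14.9% and 27.6%). Several of these counts, such as the 9 of 23 in teratoma against adult, are near the share over all genes. H19, the maternally expressed noncoding RNA beside Igf2, was 1466 ± 168 FPKM (SD, n = 3) in embryo, 14.7 ± 0.423 in teratoma, 1.17 ± 0.238 in transplant and 6.37 ± 0.186 in adult. It was lower in teratoma than in embryo (log2 change -6.54, adjusted p = 9.35e-11). Calcr, the calcitonin receptor gene that lies in the Peg10-Sgce domain and marks quiescent satellite cells, was 0.308 ± 0.533 FPKM (SD, n = 3) in embryo, 9.09 ± 2.15 in teratoma, 5.65 ± 2.98 in transplant and 12.1 ± 2.096 in adult. It was lowest in embryo (log2 change 3.39, adjusted p = 1.65e-05 in adult against embryo). Its neighbours Peg10 and Asb4 were high in embryo, but Peg10 was as high in teratoma (a mean of 117 FPKM, against 114 in embryo), where Calcr was not low.

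Markers of other cells moved with the groups, and their part in the results was not tested. All 10 myogenic markers, among them those of the sort, were above 0 in every group, summing to 165 to 211 FPKM in embryo and 904 to 1082 in adult. The 10 fibroblast markers summed to 1051 to 1484 FPKM in embryo, 1462 to 1865 in teratoma, 2325 to 3472 in transplant and 709.6 to 989 in adult, and 9 of 10 were higher in transplant than in adult or embryo. The 9 markers of endoderm and epithelium summed to 183 to 473 FPKM in teratoma and 0.0963 to 0.435 in transplant, with Epcam, Ttr, Afp, Alb and Apoa1 listed at 0 in all 3 transplant libraries, and 7 of the 7 tested were lower there. The 12 neural markers summed to 20.95 to 35.3 FPKM in embryo, 9.31 to 10.98 in teratoma, 3.68 to 12.3 in transplant and 24.7 to 38.04 in adult. The embryo and adult sums overlapped, and of the 7 neural markers tested 1 was higher and 4 were lower in adult than in embryo. The 7 erythroid markers summed to 160 to 1940 FPKM in embryo, and the 9 endothelial markers to 50.2 to 60.7 in teratoma and 8.83 to 11.1 in transplant. The 8 leukocyte markers summed to 44.05 to 155 FPKM in teratoma and 4.66 to 11.3 in embryo, and the 6 cartilage markers to 91.5 to 102 in teratoma and 30.6 to 35.96 in adult. In such bulk samples, fewer cells of a type and less RNA per cell cannot be told apart.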

How the data were processed

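The authors deposited 1 table that gives FPKM for each symbol in each library, per the file headers. Per the labels' protocols, sorted cells gave total RNA for a stranded low-input kit (SMARTer Pico). Tools named without roles in the submitters' processing notes are Cufflinks 2.2.1.0, TopHat 0.7 and CASAVA 1.8.2, with Partek and the build mm10. Depth, annotation and use of strand in counting were not given in the sources used here. Low values did not reveal the depth, so counting intervals are left out, and a 0 may stand for a failed estimate.

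The table held 23746 entries, and 462 rows repeating 240 symbols were summed. Tests used limma 3.58.1 in R 4.3.3 on log2(FPKM + 1), with a filter of 1 FPKM in 3 libraries (12699 genes), 1 linear model over 4 groups (8 residual degrees of freedom), an intensity trend in empirical Bayes moderation, and Benjamini-Hochberg adjustment per comparison, checked on simulated data. Gene positions are those of GENCODE M21 (mm10), and promoter sequences those of RefSeq on GRCm38.p6. The members and lists were chosen with earlier results of these data known. Values in every library are given for the 28 genes with a group mean of at least 5 FPKM, and the other 12 by ranges over libraries, Ascl2 and Kcnq1 being listed at 0. Replicate numbers did not pair libraries: of 18 same-numbered pairs between groups, 0 had deviations correlated above 0.1. P-values measure only the spread between these libraries.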

Additional observations from a re-analysis of the deposited data

Results flagged for a closer look

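The following genes had an adult-embryo change that differed from their transplant-teratoma change in the limma test of the difference itself. On the log2 scale, a negative value means that the adult-embryo change was the lower of the 2. The differences were -3.79 for Mest, -2.99 for Ndn, -2.72 for Dlk1, -2.33 for Dio3 and -2.22 for Asb4. They were -1.91 for Nnat, -1.89 for Magel2, -1.76 for Commd1 and -1.59 for Plagl1. Smaller negative differences were -1.14 for Ppp1r9a, -1.05 for Slc38a4, -1.01 for Peg3 and -0.86 for Peg10. Positive differences were 2.22 for Zdbf2, 2.14 for Mirg, 1.84 for Meg3 and 1.06 for Rian. The difference of Rian was not called with quantile normalization (0.72, adjusted p = 0.147), nor without teratoma replicate 1, transplant replicate 2, embryo replicate 1 or 3, or adult replicate 1 or 2 (adjusted p from 0.0532 to 0.0737). That of Peg10 was not called with median-ratio scaling (-0.66, adjusted p = 0.105), nor without teratoma replicate 2 or 3, transplant replicate 3, embryo replicate 1 or 2, or adult replicate 1 or 2 (adjusted p from 0.0512 to 0.0746). Those of Ppp1r9a and Slc38a4 were not called with quantile normalization (-0.69, adjusted p = 0.121) and with quantile normalization (-0.65, adjusted p = 0.121) respectively. Magel2 passed the filter on low values through embryo alone, so its further fall in the native step was fixed by that filter and is no result. Adult and embryo libraries come from whole hindlimbs and whole embryos, and the stem-cell-derived ones from tumours and 1 muscle, so step and tissue cannot be told apart.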

How the results depend on the processing

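Of 128 called changes of single genes, 91 stayed called under every alternative run, 37 were lost under at least 1 and 0 reversed. The least stable were Ube3a and Ppp1r9a in transplant against teratoma (17 and 12 of 24 alternatives) and Ppp1r9a in teratoma against embryo (16). The number of imprinted genes called stayed within 1.5 times of that reported, except that teratoma against embryo gave 8 in place of 13 when a log2 change of at least 1 was also required. With 1 library left out, the counts ran from 17 to 21 (adult against embryo), 9 to 14 (teratoma against embryo), 16 to 21 (teratoma against adult), 13 to 17 (transplant against teratoma), 16 to 20 (transplant against adult), 21 to 24 (transplant against embryo) and 14 to 18 (difference between the steps). A replicate block gave 20, 13, 19, 14, 20, 23 and 17 in that order, though replicate numbers showed no pairing, and 3 of 12 libraries correlated best with their own number. Counts over all genes moved more: teratoma against embryo gave 2084 with a filter at a mean of 5 FPKM and 2123 without teratoma replicate 2, against 3308. Transplant against teratoma gave 1524 without teratoma replicate 1, 1803 without transplant replicate 1 and 1623 with the log2 limit, against 2874. Adult against embryo gave 4370 with the filter at 5 FPKM, against 6699, since fewer genes were tested. Fitting only the groups compared was not run for the difference between the steps, which uses all 4. With depth unknown, low values such as those of Snrpn, Kcnq1ot1 or Dio3 have no counting error attached.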
